A study of Mus musculus with 2 samples.

Results

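The Gzmc-high cells of mite-treated mouse skin are the barcodes with 5 or more UMIs of Gzmc, the gene of granzyme C. A UMI (unique molecular identifier) stands for 1 captured RNA molecule. To be counted, a barcode had to hold 500 or more UMIs from 250 or more genes, under 10% of them mitochondrial, and 2 or more UMIs of Cd3d, Cd3e, Cd3g and Nkg7 together. It also had to hold at most 1 UMI of the complement genes C1qa, C1qb and C1qc together, none of Foxp3, and at most 1 of Cd163l1, Blk and 5830411N06Rik together. These limits set aside macrophages, regulatory T cells and dermal gamma-delta T cells. The rule found 55 of 14619 barcodes kept as cells in the IL31RAKO library and 132 of 11934 in the WT library, 187 in all. Because Gzmc chose the cells, their Gzmc level is a description and no finding.

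The series has 1 library per genotype, from IL31RAKO mice, which lack the alpha chain of the IL-31 receptor, and from WT mice, both of strain C57Bl/6. The design asks what IL-31, a cytokine of itch, contributes to dermatitis from house dust mite. Both groups received Biostir ointment with D. farinae mite on the shaved back over 3 weeks, with 2 applications in each, and a 2% SDS solution 2 hours ahead of each one. Skin of 4 mice per genotype was pooled before live CD45+ cells (leukocytes) were sorted and loaded, 30000 per genotype, on the 10x Single Cell 3′ v2 kit. With 1 pool per genotype, mouse, sort and library cannot be told apart from genotype, so all intervals below cover counting error only and no test between genotypes was made.

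Granzymes are serine proteases stored in the granules of killer lymphocytes and delivered into target cells through pores made by perforin. Granzymes A and B are the best known of them, while granzyme C belongs to a rodent cluster of close copies next to the granzyme B gene. Xcl1 is a chemokine of activated CD8+ T cells and NK cells that attracts XCR1+ dendritic cells, and Nkg7 is a protein of cytotoxic granules. The skin of mice holds several lymphocytes with such granules, among them CD8+ resident memory T cells, gamma-delta T cells of the epidermis, NK cells and group 1 innate lymphoid cells.

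Gzmc (ENSMUSG00000079186) lies on chromosome 14 at 56231441 to 56234656 of the mouse build GRCm38 (mm10), on the minus strand. In the GENCODE annotation it stands in a row of 7 granzyme genes (Gzme, Gzmd, Gzmg, Gzmn, Gzmf, Gzmc and Gzmb) that spans 145 kb. The 250 bases upstream of 3 of these genes, as placed by RefSeq, are shown. The Gzmc-high cells carried RNA of Gzmc and almost none of its close copy Gzmd or its neighbour Gzmb. The sequences are those of RefSeq (GRCm38.p6), 5′ to 3′ on the minus strand, which carries the genes, at chr14:56234658-56234907 for Gzmc, chr14:56132594-56132843 for Gzmd and chr14:56262335-56262584 for Gzmb. Capitals mark the letters TGTGGT or their reverse complement ACCACA, a core sequence bound by RUNX factors, and TGACGTCA, the palindromic cyclic AMP response element.
Gzmc: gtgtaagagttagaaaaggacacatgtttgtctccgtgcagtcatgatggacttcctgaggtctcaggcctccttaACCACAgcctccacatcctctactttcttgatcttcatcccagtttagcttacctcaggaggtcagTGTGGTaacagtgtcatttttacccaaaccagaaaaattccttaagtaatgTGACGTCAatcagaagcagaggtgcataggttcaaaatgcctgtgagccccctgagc
Gzmd: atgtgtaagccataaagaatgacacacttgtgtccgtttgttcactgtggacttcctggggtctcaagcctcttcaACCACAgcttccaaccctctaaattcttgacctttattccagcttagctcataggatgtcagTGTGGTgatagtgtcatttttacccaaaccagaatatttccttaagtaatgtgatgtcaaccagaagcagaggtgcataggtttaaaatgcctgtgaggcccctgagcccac
Gzmb: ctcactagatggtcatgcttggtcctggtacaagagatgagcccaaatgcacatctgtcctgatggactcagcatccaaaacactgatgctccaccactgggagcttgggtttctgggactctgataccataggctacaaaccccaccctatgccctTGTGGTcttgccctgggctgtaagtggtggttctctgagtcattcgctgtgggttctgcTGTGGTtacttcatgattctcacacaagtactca
In a global alignment, the Gzmc window was identical to that of Gzmd at 80.5% of aligned columns and to that of Gzmb at 47.5%. All 3 windows hold the RUNX letters at 2 places, and 14.05% of 32851 mouse promoter windows of this length hold them at 1 place or more, on either strand. TGACGTCA stands in the Gzmc window and not in the windows of Gzmd and Gzmb, and in 1.55% of all windows. The AP-1 letters TGANTCA stand in the Gzmb window alone, at 1 place, and in 6.75% of all windows. The STAT letters TTCNNNGAA (7.02% of all windows) and the T-box letters GGTGTGA (3.33%) stand in none of the 3. The windows do not sit alike against the GENCODE genes, which begin at 56234656 (Gzmc), 56132608 (Gzmd) and 56262260 (Gzmb) on the minus strand. The Gzmd window reaches into its GENCODE gene, and the Gzmb window leaves out the bases next to its own. The letters found and the identities hold for these windows only. A match of letters is a description and no binding site.

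Under the rule, each of the 55 IL31RAKO cells held between 6 and 424 Gzmc UMIs with a median of 48, and each of the 132 WT cells between 5 and 595 with a median of 90. Gzmc made up 2.07% of all UMIs of the IL31RAKO cells and 2.57% of those of the WT cells. The Gzmc-high cells held 49.5% of the Gzmc UMIs of all kept barcodes in the IL31RAKO library and 61.9% in the WT library. Other barcodes held Gzmc UMIs as well: 331 of 3484 macrophage-type barcodes (C1q genes 5 or more) of the IL31RAKO library and 488 of 1810 (27.0%) of the WT library had a Gzmc UMI, but only 4 and 2 of them had 5 or more. Just inside the limit, at 5 to 9 Gzmc UMIs, lay 7 IL31RAKO and 11 WT cells, of which 6 and 9 had an Xcl1 UMI. Just outside, at 3 to 4 UMIs, lay 10 IL31RAKO and 52 WT cells, of which 5 and 17 had one.

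**Figure D1:**
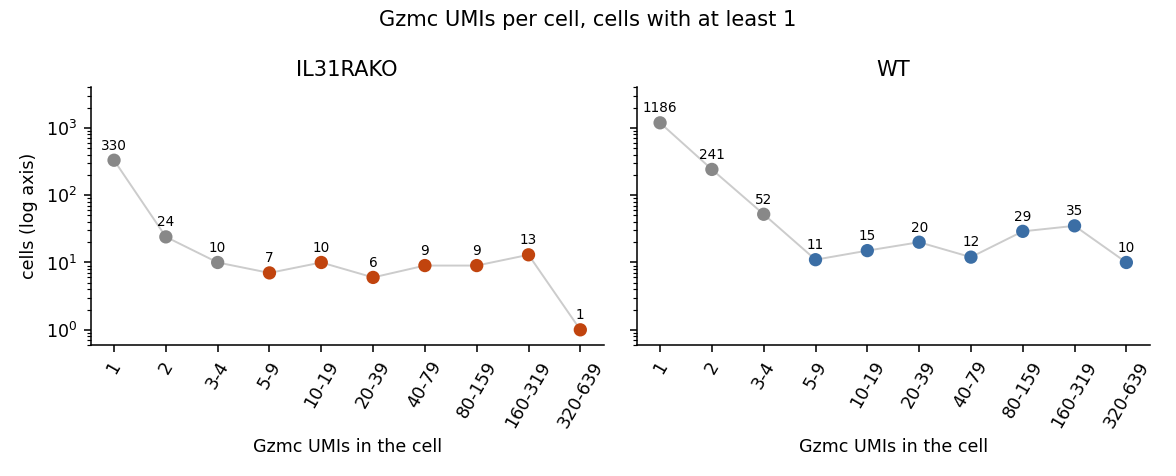
Number of cells (log axis) by their Gzmc UMIs (binned), for cells that meet the rule apart from its Gzmc limit and hold at least 1 Gzmc UMI, IL31RAKO left and WT right. Grey points lie under the limit of 5 UMIs and coloured points at or above it: 7 (IL31RAKO) and 11 (WT) cells lie at 5 to 9 UMIs, and the bin before the last holds 13 (IL31RAKO) and 35 (WT) cells.

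A further 28 IL31RAKO and 39 WT barcodes had 5 or more Gzmc UMIs and were left out by another limit. C1q genes left out 20 and 27, Foxp3 4 and 5, the genes of dermal gamma-delta cells 4 and 6, and low CD3 and Nkg7 4 and 6, with some barcodes failing more than 1. The Gzmc-high cells held 245232 UMIs in all in the IL31RAKO library, at a median of 4143 per cell, and 669704 in the WT library, at a median of 4270.5. The barcodes of highest Scrublet score in each library, 11.7% (IL31RAKO) and 9.54% (WT) of those kept, were marked as likely doublets. They included 10 (18.2%) and 18 (13.6%) of the Gzmc-high cells, a larger share, which were kept. The kept barcodes of the IL31RAKO and WT libraries had 247 cell barcodes in common, and no Gzmc-high barcode was found in both.

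Gzmc-high cells made up 0.376% of the kept barcodes of the IL31RAKO library (95% exact binomial interval 0.284 to 0.489%) and 1.11% of those of the WT library (0.926 to 1.31%). The share was 0.340 times as large in IL31RAKO as in WT (95% exact interval 0.244 to 0.469). Of the barcodes that met the rule apart from its Gzmc limit, they were 1.23% of 4470 in IL31RAKO and 2.44% of 5408 in WT, which gave a ratio of 0.504 (0.361 to 0.695). Those barcodes made up 30.6% of kept barcodes in IL31RAKO and 45.3% in WT. They are no pure lymphocyte class: with Gzmc at 0 they held 32102 and 25771 CPM (UMIs per 1000000 UMIs of a class) of 8 dendritic cell genes summed, against 39634 and 42923 in free RNA and 5949 and 6654 in Gzmc-high cells. The rule has no limit on such genes, so ratios to Gzmc-0 cells below include what these other cells carry. Shares of a sort add up to a whole, so fewer Gzmc-high cells and more of other leukocytes cannot be told apart.

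The markers that go with the label of these cells, activated cytotoxic lymphocytes, were carried unevenly. Xcl1 had UMIs in 52 of 55 IL31RAKO cells (94.5%, exact interval 84.9 to 98.9%) and 127 of 132 WT cells (96.2%, 91.4 to 98.8%). Nkg7, a gene of the rule, had UMIs in 54 and 130 cells. Cells with 0 or 1 CD3 UMI, 21 in IL31RAKO and 49 in WT, had to hold Nkg7 to meet the rule, so this share is no finding. Gzmb had UMIs in only 9 IL31RAKO cells (16.4%, 7.77 to 28.8%) and 8 WT cells (6.06%, 2.65 to 11.6%). Cells that met the other limits with Gzmc at 0, called Gzmc-0 cells below, had Gzmb UMIs in 18.4% (IL31RAKO) and 9.11% (WT), and macrophage-type barcodes in 9.56% and 3.54%, at median depths of 2767 and 2578 UMIs for Gzmc-0 cells and 4015.5 and 3624.5 for macrophage-type barcodes. The Gzmb shares of Gzmc-high cells thus lay under those of Gzmc-0 cells, but their intervals included those of both Gzmc-0 cells and macrophage-type barcodes. Gzmb was found in few of the cells, at shares set apart from neither class. Prf1, the perforin gene, went the other way, with UMIs in 14.5% (IL31RAKO) and 10.6% (WT) of Gzmc-high cells. That compared with 3.70% and 4.79% of Gzmc-0 cells, and with 0.804% and 0.663% of macrophage-type barcodes. As these markers did not all go the same way, the cells are called Gzmc-high here, after the gene that chose them. Whether they are activated cytotoxic cells was not tested.

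The other granzymes were as sparse. Gzmb summed to 25 UMIs in IL31RAKO and 99 in WT, of which 11 and 85 lay in 1 cell each. Gzma, which cleaves at basic residues, had 0 UMIs in IL31RAKO and 154 in WT, all in 3 cells with 120 in 1 of them. Gzmd had 0 and 1 UMIs, and Gzme, Gzmf, Gzmg, Gzmk, Gzmm and Gzmn had 0 in both libraries. Perforin (Prf1) had 8 UMIs in 8 IL31RAKO cells and 18 UMIs in 14 WT cells, against 28 of 3484 and 12 of 1810 macrophage-type barcodes with a UMI. At 32.6 and 26.9 CPM, Prf1 lay 2.74 times (IL31RAKO) and 1.48 times (WT) as high as in Gzmc-0 cells. In the GENCODE transcripts, none of the 797 stretches of 98 bases of Gzmc, the length of the transcript read, recurs unchanged in another gene of the granzyme and perforin list, but reads with sequencing errors or other read placement could still be split among the copies, so the counts of these close copies remain uncertain.

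Xcl1 was carried by nearly every Gzmc-high cell, at widely different counts. The IL31RAKO cells held between 0 and 497 Xcl1 UMIs each with a median of 8, and the WT cells between 0 and 239 with a median of 10. The single highest IL31RAKO cell held 497 of 1280 Xcl1 UMIs of that library, and the next one 87. The summed level was 5220 CPM in IL31RAKO and 4839 in WT, against 76.6 and 160 in Gzmc-0 cells and 94.7 and 84.96 in free RNA (barcodes of 10 to 50 UMIs). Xcl1 was thus 68.1-fold (IL31RAKO, 95% counting interval 62.8 to 73.9) and 30.2-fold (WT, 28.5 to 32.0) higher than in Gzmc-0 cells. The cysteine protease gene Ctsw, made by NK cells and cytotoxic T cells, had UMIs in 54 and 130 cells and lay at 2895 and 3170 CPM, 11.2-fold and 10.2-fold higher.

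In both libraries at once, 196 of 4868 genes with 20 or more UMIs in the Gzmc-high cells were 2-fold or more higher than in Gzmc-0 cells (4.03%), and 112 were 2-fold or more lower (2.30%). Since cells were picked on Gzmc, these ratios describe the picked cells and test nothing. Genes entered by their UMIs in Gzmc-high cells alone, so genes too rare there could not count as lower. This favours counts of higher genes, here and in the lists below. Of 22 genes of NK receptors and their adaptors measured at this depth, 17 were 2-fold or more higher in both libraries and none was 2-fold lower in both, with a median log2 ratio of 1.73 (IL31RAKO) and 1.83 (WT) against 0.10 and 0.08 over all 4868 genes.

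Among the receptors, Klrb1a (an NK1.1-family lectin) had 38 UMIs in 25 IL31RAKO cells and 85 UMIs in 58 WT cells, 36.3-fold and 17.7-fold higher than in Gzmc-0 cells. Klrb1f had 32 UMIs in 22 cells and 118 UMIs in 67 cells, 10.4-fold and 10.2-fold higher. Cd160, a receptor for HVEM and MHC class I, had 96 UMIs in 36 cells and 220 UMIs in 81 cells, 12.4-fold and 15.7-fold higher. These 3 receptors were spread over many cells of either genotype. Klrd1 (CD94) had UMIs in 49 IL31RAKO and 115 WT cells, and Klrk1 (NKG2D) in 45 and 111. Klra1 (Ly49A) was held by few, with 46 UMIs in 10 IL31RAKO cells and 69 UMIs in 17 WT cells, yet lay 88.0-fold and 22.4-fold higher. The Klra genes are near copies of each other, so their counts remain uncertain.

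Fcer1g, the signalling adaptor of Fc receptors and NK receptors, had UMIs in 54 IL31RAKO and 130 WT cells at 3250 and 3342 CPM, against 1330 and 1304 in Gzmc-0 cells. Its free-RNA level was 2347 and 2753 CPM, and 99.2% and 99.0% of macrophage-type barcodes held a UMI, so part of these counts may be background, which was not tested. Tyrobp (DAP12), the adaptor of activating NK receptors, lay at 1859 and 2055 CPM, close to its free-RNA level of 1847 and 2014. Macrophage genes themselves were low: the 10 genes of the macrophage list summed to 1472 CPM in IL31RAKO and 796 in WT, against 4248 and 3552 in Gzmc-0 cells and 9601 and 11767 in free RNA.

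The rest of the genes that led over Gzmc-0 cells were mixed in kind. Pdzk1, a scaffold protein known from kidney and liver, had 17 UMIs in 10 IL31RAKO cells and 124 UMIs in 59 WT cells, 126-fold (51.5 to 337) and 123-fold (74.8 to 215) higher. Its free-RNA level was 5.26 CPM in IL31RAKO and 0 in WT. Tnni1, a troponin of slow muscle, had 8 UMIs in 4 cells and 46 UMIs in 23 cells, and Ccdc184 had 23 in 12 cells and 77 in 30. Ptger3, a receptor for prostaglandin E2, had 50 UMIs in 25 cells and 111 in 60, 21.0-fold and 14.2-fold higher. Nrgn, a calmodulin-binding protein best known from neurons, had 87 UMIs in 33 cells and 321 in 92, 11.9-fold and 11.8-fold higher. Pglyrp1, an antibacterial protein known from neutrophil granules, had 168 UMIs in 39 cells and 553 in 100, 9.09-fold and 20.6-fold higher. The others named by the same rule were Samd3, Ccdc136, Qrfp, Upp1, Cdh17, Car2, Prss2 and the chemokine Ccl1, with ratios between 12.7-fold and 110-fold over both libraries. Prss2 had only 13 UMIs in 3 IL31RAKO and 18 UMIs in 4 WT cells.

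**Figure D2:**
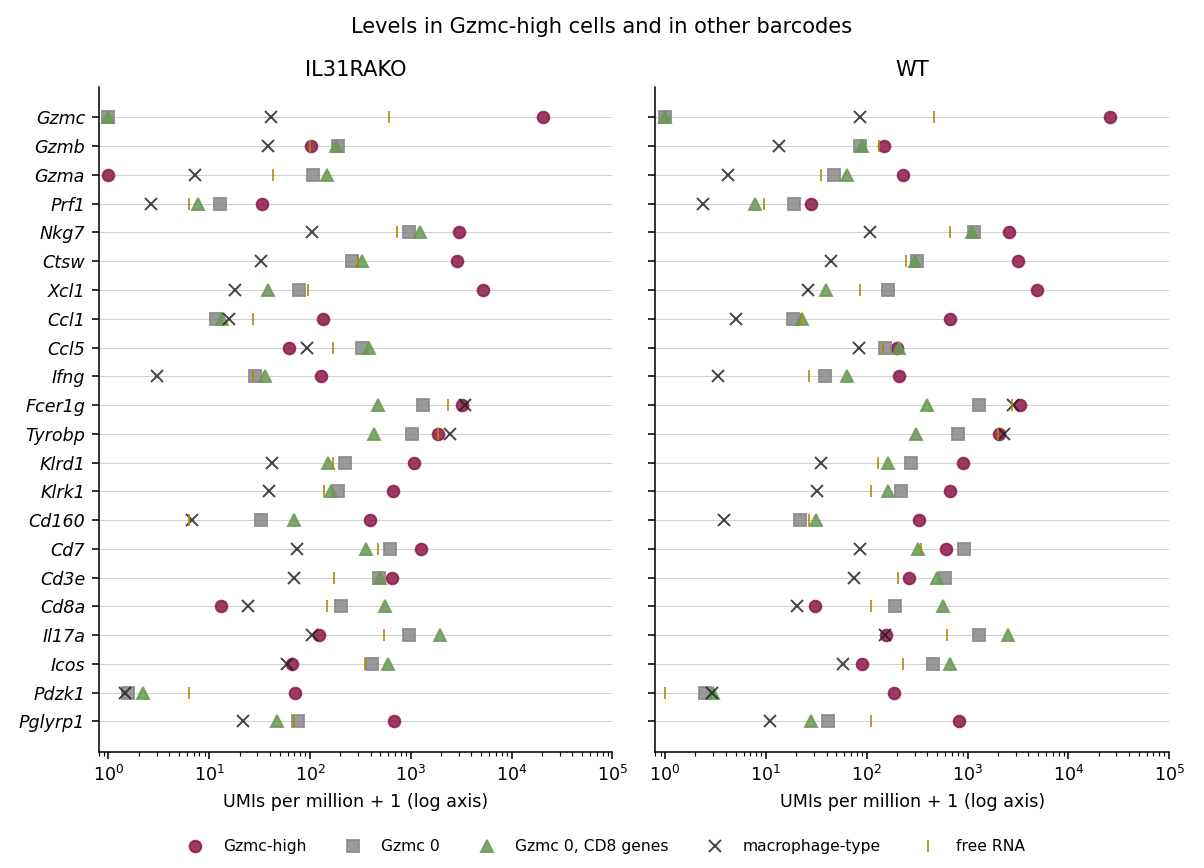
Levels of 22 genes as UMIs per 1000000 plus 1 (log axis) in Gzmc-high cells, Gzmc-0 cells, Gzmc-0 cells with 2 or more Cd8a and Cd8b1 UMIs, macrophage-type barcodes and free RNA, IL31RAKO left and WT right. Gzmc is 0 in Gzmc-0 cells by construction; Xcl1 and Ctsw of Gzmc-high cells lie right of all other classes in both libraries, Gzmb does not in IL31RAKO, and Cd8a, Il17a and Icos lie left of the Gzmc-0 cells.

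The size of these ratios depended on the cells set against them. Gzmc-0 cells with a UMI of both Cd7 and Avil, genes of epidermal gamma-delta T cells, numbered 270 in IL31RAKO and 394 in WT. They held 725 and 988 CPM of Xcl1, so that Xcl1 of Gzmc-high cells was 7.20-fold (IL31RAKO) and 4.90-fold (WT) higher than there. Ctsw was 2.64-fold and 2.84-fold higher, Klrb1a 3.79-fold and 2.91-fold, and Nrgn 1.38-fold and 1.97-fold. Pglyrp1 was 34.6-fold and 31.8-fold higher, a wider gap than over all Gzmc-0 cells. Over all genes tested, 192 were 2-fold or more higher and 141 lower in both libraries against these cells. The 10 genes named as lower stayed below 1, with Icos nearest to it at 0.494 (IL31RAKO) and 0.903 (WT) times.

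CD8 genes and IL-17 genes were lower than in Gzmc-0 cells. Cd8a had 3 UMIs in 3 IL31RAKO cells and 20 UMIs in 12 WT cells, and Cd8b1 4 UMIs in 4 cells and 35 UMIs in 15. Counted together, CD8 genes had UMIs in 7 of 55 and 22 of 132 Gzmc-high cells, against 47.3% and 43.6% of Gzmc-0 cells and 15.4% and 16.0% of macrophage-type barcodes, so the Gzmc-high cells lay near background. Cd4 had UMIs in 1 of 55 IL31RAKO cells and 0 of 132 WT cells (exact upper bound 2.76%), against 3.56% and 2.82% of macrophage-type barcodes, which says how many cells had a UMI and not how many express the gene. Il17a lay at 122 and 154 CPM, 0.127 and 0.119 times the level in Gzmc-0 cells, and Il17f at 0.0777 and 0.0712 times. Rora, a transcription factor of ILC2 and IL-17 cells, lay at 0.112 and 0.111 times, and Icos, Cxcr6, Tff1, Lsp1 and Arhgap31 were lower as well, between 0.133 and 0.285 times. Macrophage-type barcodes held 103 and 152 CPM of Il17a, and free RNA 537 and 624. The Il17a UMIs were not even among Gzmc-high cells: cells with 5 or more CD3 UMIs held 27 of the 30 in IL31RAKO and 57 of the 103 in WT, and 1 cell held 13 and 21. The part of free RNA in these levels was not tested.

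Further lists gave smaller differences. Of 12 transcription factors measured, Tbx21 (T-bet) and Ikzf2 (Helios) were 2-fold or more higher in both libraries and Zeb2 (0.104 and 0.249 times) and Rora were 2-fold or more lower. The list's median log2 ratio was 0.17 (IL31RAKO) and 0.24 (WT), against 0.10 and 0.08 over all genes tested. Tbx21 had UMIs in 12 IL31RAKO and 22 WT cells (21.8% and 16.7%), against 1.28% and 1.92% of Gzmc-0 cells, while Eomes, the related factor of mature NK cells, had UMIs in 0 and 2 cells. Ikzf2 had UMIs in 34 and 85 cells at 412 and 270 CPM, 4.05-fold and 3.099-fold higher. Of 5 recirculation genes, Tcf7 (138.6 and 149.3 CPM, 2.99-fold and 2.81-fold) and Cx3cr1 (4.19-fold and 3.67-fold) were higher and Klf2 (0.496 and 0.386 times) was lower, with a median log2 ratio of -0.29 and -0.55. Of 8 residency genes, Itga1 (CD49a) was higher in both (4.02-fold and 5.06-fold), while Itgae (CD103), which had UMIs in 41 and 114 cells, was 1.89-fold and 2.01-fold higher. Cxcr6, a residency gene as well, was lower. None of 19 genes of a mixed activation and immediate early list was 2-fold higher in both. Irf8 of that list, which is no immediate early gene, was 2-fold lower. Ifng had 31 UMIs in 10 cells and 138 UMIs in 40 cells, 4.57-fold and 5.51-fold higher, and the death ligand Tnfsf10 (TRAIL) was 5.66-fold and 8.04-fold higher. Genes of T cell receptor chains were not analysed here, so alpha-beta and gamma-delta T cells could not be separated among the Gzmc-high cells.

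Gzmc-high cells ranged from 0 to 67 (IL31RAKO) and 83 (WT) UMIs of CD3, the signalling part of the T cell receptor (Cd3d, Cd3e and Cd3g summed). Cells with 5 or more CD3 UMIs numbered 31 of 55 in IL31RAKO (56.4%, exact interval 42.3 to 69.7%) and 53 of 132 in WT (40.2%, 31.7 to 49.0%), with medians of 26 and 22 CD3 UMIs. Cells with 0 or 1 CD3 UMI numbered 21 (38.2%) and 49 (37.1%), and those with 2 to 4 numbered 3 and 30. The cut points were chosen after the values were seen. Among macrophage-type barcodes, which lack CD3, 53.4% and 60.8% held a CD3 UMI and 7.35% and 8.84% held 5 or more, so counts of 1 to 4 cannot be told apart from background. As a share of all kept barcodes, the class of 5 or more CD3 UMIs was 0.212% in IL31RAKO and 0.444% in WT (ratio 0.477, 0.296 to 0.758). The class of 0 or 1 was 0.144% and 0.411% (0.350, 0.199 to 0.594), and that of 2 to 4 was 0.0205% and 0.251% (0.0816, 0.0159 to 0.262). Each class was a smaller share in IL31RAKO.

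Gzmc itself, the gene of the rule, was lower in the CD3-rich cells (5 or more CD3 UMIs) than in the CD3-poor cells (0 or 1). Its median was 29 UMIs (range 6 to 236) in the IL31RAKO cells with 5 or more CD3 UMIs and 122 (6 to 424) in those with 0 or 1. In WT it was 30 (5 to 426) and 118 (5 to 566). The ranges overlapped in both libraries, at median depths of 3738 and 4214 UMIs per cell in IL31RAKO and 3647 and 4263 in WT.

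**Figure D3:**
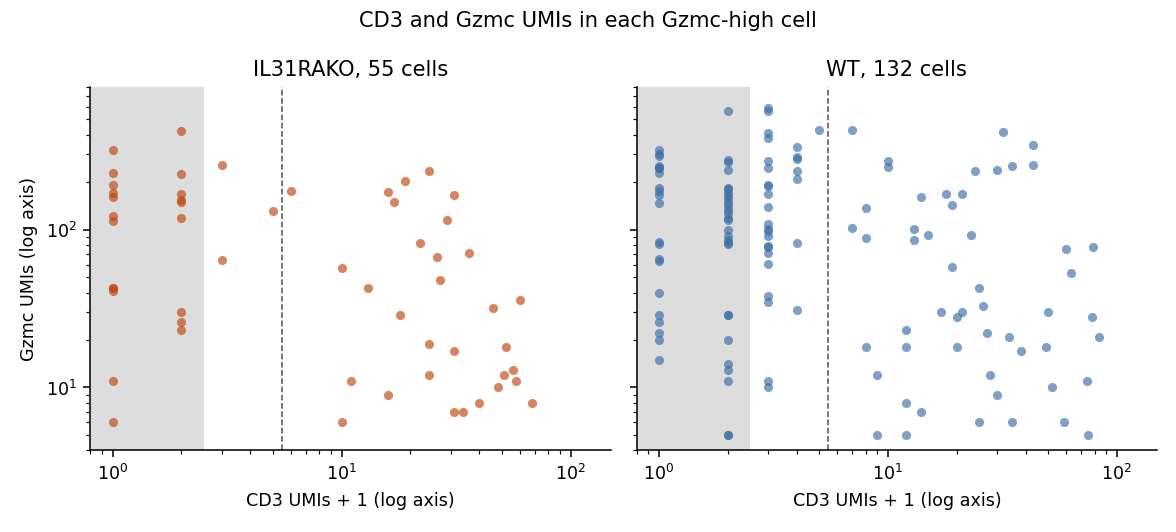
CD3 UMIs plus 1 (horizontal, log axis) against Gzmc UMIs (vertical, log axis) for each Gzmc-high cell, 55 IL31RAKO cells left and 132 WT cells right. Grey marks 0 or 1 CD3 UMI and the dashed line the limit of 5; the median Gzmc counts are 29 (IL31RAKO) and 30 (WT) right of the line, against 122 and 118 in the grey area, and the ranges overlap.

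Across the cells of each library, the genes most like Gzmc by Spearman's rank correlation of depth-scaled levels were Pglyrp1 (0.56 over 55 IL31RAKO cells and 0.70 over 132 WT cells), Ctsw (0.55 and 0.42), Mndal (0.53 and 0.38), Cd82 (0.43 and 0.43) and Ostf1 (0.38 and 0.42). Pdzk1, Tyrobp and Pik3r6 followed. The most opposed were Cd3d (-0.45 and -0.37), Cd3g (-0.46 and -0.36), Cd247 (-0.53 and -0.28) and Cd7 (-0.42 and -0.35). Cells of 1 library share their free RNA and were picked on Gzmc, so these are descriptions, computed over genes found in 20% or more of the cells. Pglyrp1 also ran with depth (0.30 and 0.29), and Gzmc did in WT (0.05 in IL31RAKO and 0.29 in WT). Cd7 (-0.41 and -0.13), Cd3d (-0.35 and -0.30) and Cd3g (-0.26 and -0.25) ran against depth, while Cd247 did not (0.08 and -0.03). The part of depth in these correlations was not tested.

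Several receptors were higher in CD3-rich cells in both libraries. Cd247, the zeta chain of the T cell receptor complex, had 36 UMIs in the IL31RAKO cells with 5 or more CD3 UMIs and 0 in those with 0 or 1, and 59 and 7 in WT. Klra1 had 46 and 0 UMIs in IL31RAKO and 69 and 0 in WT, so that all its UMIs outside the 2 to 4 class lay in CD3-rich cells. That gave at least 10.7-fold (IL31RAKO) and at least 20.6-fold (WT) higher levels, at a floor of 3 UMIs per class. Klra7 had 27 and 0 UMIs in IL31RAKO and 41 and 6 in WT. Gzmb had 24 and 1 UMIs in IL31RAKO and 95 and 3 in WT, and the single WT cell with 85 Gzmb UMIs sets that value. Tnfrsf9 (4-1BB), a receptor of activated T cells, had 39 and 4 UMIs in IL31RAKO and 28 and 1 in WT. Cd7 had 283 and 22 UMIs in IL31RAKO (8.95-fold) and 284 and 95 in WT (2.68-fold).

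Other genes were lower in CD3-rich than in CD3-poor cells in both libraries, and genes known from NK cells lay on both sides. Tyrobp lay at 742 CPM in CD3-rich and 3080 in CD3-poor cells of IL31RAKO (0.241 times, 0.189 to 0.305), and at 1303 and 2863 in WT (0.455 times, 0.397 to 0.520). The CD3-poor level was above free RNA in both libraries. Xcl1 lay at 4003 and 7701 CPM in IL31RAKO (0.520 times) and 3207 and 6425 in WT (0.499 times). Of the 700 Xcl1 UMIs in CD3-poor IL31RAKO cells, 497 lay in 1 cell. Ifng lay at 0.212 and 0.380 times in IL31RAKO and WT, the Tec-family kinase gene Txk at 0.232 and 0.336 times, and Klrc1 (NKG2A) at 0.370 and 0.521 times. Ncr1 (NKp46), a defining receptor of NK cells and ILC1, had 0 UMIs in CD3-rich and 5 in CD3-poor cells of IL31RAKO and 5 and 15 in WT. Over all Gzmc-high cells, 7.27% (IL31RAKO) and 18.9% (WT) had an Ncr1 UMI. That compared with 0.913% and 0.764% of Gzmc-0 cells, and with 0.230% and 0.221% of macrophage-type barcodes. Fcer1g was close in both, at 3322 CPM in CD3-rich and 3223.5 in CD3-poor cells of IL31RAKO and at 3180 and 3571 in WT.

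**Figure D4:**
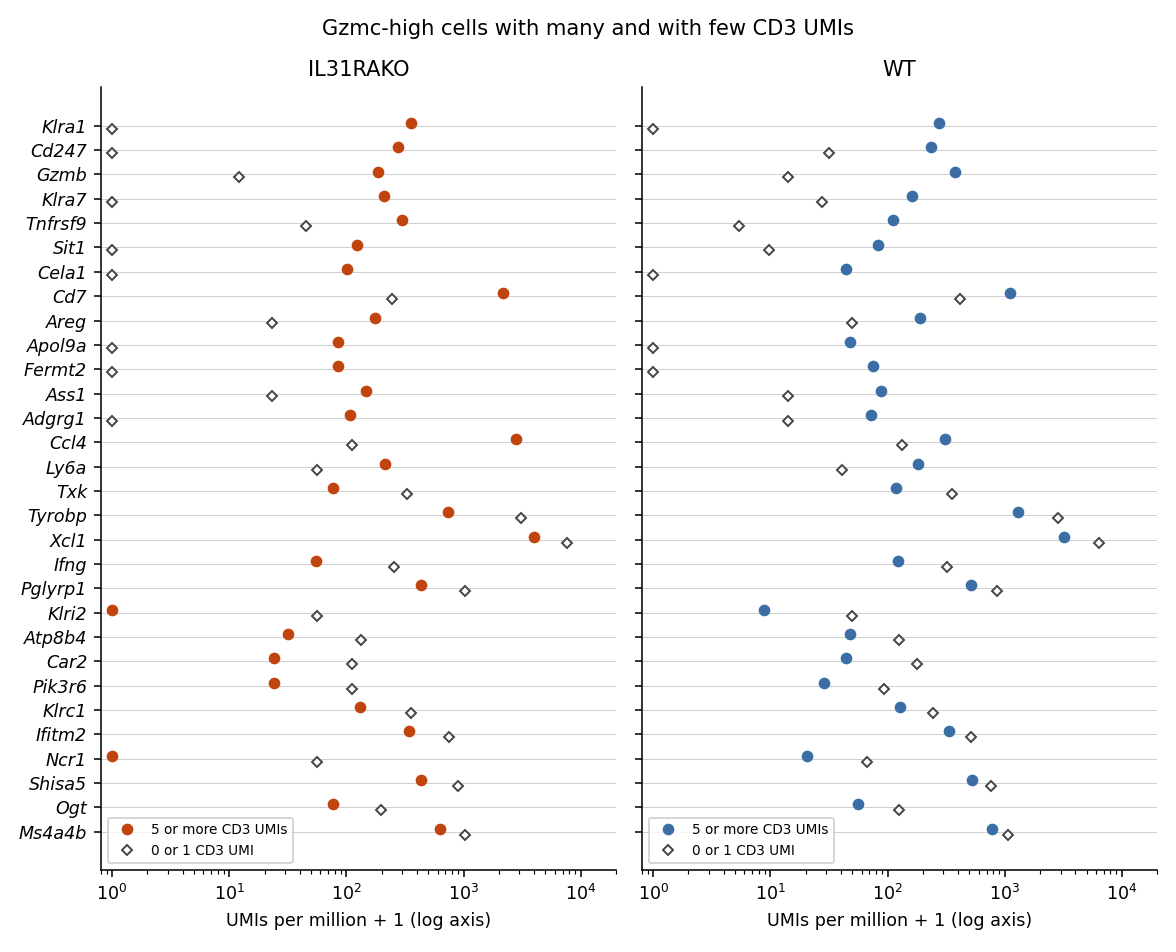
Levels, as UMIs per 1000000 plus 1 (log axis), of 15 genes higher and 15 lower in CD3-rich (5 or more CD3 UMIs, filled) than in CD3-poor (0 or 1, open) Gzmc-high cells in both libraries, IL31RAKO left and WT right. Klra1 and Cd247 of IL31RAKO CD3-poor cells stand at 0 UMIs, and Tyrobp and Xcl1 of CD3-poor cells lie right of CD3-rich cells in both panels.

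Between genotypes, the genes carried by nearly every Gzmc-high cell lay within 2-fold. Xcl1 was 1.08 times as high in IL31RAKO as in WT cells (95% counting interval 1.01 to 1.15), Ctsw 0.913 times (0.838 to 0.995) and Fcer1g 0.973 times (0.896 to 1.05). Nkg7, a gene of the rule, was 1.17 times as high (1.07 to 1.28). Without the highest cell of each library, Xcl1 was 0.712 times as high. Such values keep the full library totals. They lean low over genes as a whole, since the highest cell is a larger part of the smaller IL31RAKO group. Gzmb was 0.690 times as high (0.426 to 1.08) and, without the highest cell of each library, 2.73 times. With a Gzmc limit of 3 UMIs it was 2.71 times and with 10 UMIs 0.321 times as high. Il31ra, the gene removed in IL31RAKO mice, had 0 UMIs in the Gzmc-high cells of either library, which allows a share of cells with a UMI of up to 5.45% and 2.27%, at 3 cells of each total. Over all kept barcodes it had 26 UMIs in the library labelled IL31RAKO and 11 in the library labelled WT, so its loss is not seen in these counts. Whether the 3′ reads come from exons that the deletion spared is not given in the sources used here; the genotypes thus stand as labelled, here and in each comparison between them.

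Of the 4868 genes, 168 were 2-fold or more higher in IL31RAKO than in WT cells (3.45%) and 283 were 2-fold or more lower (5.81%), with a median log2 ratio of -0.02. The minimum of 20 UMIs is a sum over both libraries, and WT cells held more of the UMIs, so the balance depends on it. At a minimum of 50 UMIs, 35 of 2381 genes were higher and 42 lower. At 1 or more UMIs in each library, 1247 of 9475 were higher and 894 lower. NK receptors held 2 of 22 higher and 1 of 22 lower, activation and immediate early genes 0 and 0 of 19, and residency genes 0 and 0 of 8. Chemokines held 3 of 6 higher (Ccl3, Ccl4 and Ccl9) and 2 lower (Ccl1 and Ccl5), which rested on few cells; Ccl9 was 2.49 times as high, and 0.853 times without 1 IL31RAKO barcode rich in Mcpt8, described below. Cytokines held 1 of 12 higher (Osm) and none lower. Among the rest, Ifng was 0.613 times as high (0.401 to 0.911), with 16 of 31 IL31RAKO UMIs in 1 cell. Without the highest cell of each library Ifng was 0.369 times as high (0.1998 to 0.635), and with doublets removed 0.762 times (0.488 to 1.16). Tnfsf10 was 0.577 times as high (0.332 to 0.953). Heat shock genes held none of 10 higher and 1 lower. Proliferation genes held none of 19 higher and 4 lower, with a median log2 ratio of -0.46.

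Of the 12 genes named as higher in IL31RAKO, 8 had most of their UMIs in 1 barcode. That barcode had 6281 UMIs, among them 12 of Gzmc, 50 of CD3 genes and 24 of Mcpt8, a protease gene of basophils. It was not among the barcodes marked as doublets by Scrublet score. It held all 39 IL31RAKO UMIs of Il6, all 24 of Mcpt8, 45 of 52 of Hdc (histidine decarboxylase), 270 of 290 of Ccl3, 336 of 378 of Ccl4 and 116 of 125 of Ier3. It also held 31 of 48 UMIs of the cytokine gene Osm (oncostatin M) and 29 of 54 of Cdkn1a, an inhibitor of the cell cycle. Without it, Ccl3 was 0.812 times as high in IL31RAKO as in WT (0.468 to 1.35) and Ccl4 0.981 times (0.673 to 1.40), against 11.5 and 8.602 times with it. Hdc was 2.80, Osm 2.17 and Cdkn1a 1.67 times as high without it, against 20.3, 5.96 and 3.51 times with it. The 6 genes of the mast cell and basophil list summed to 122 CPM in IL31RAKO and 10.5 in WT, against 67.1 and 51.5 in Gzmc-0 cells and 274 and 276 in free RNA. The IL31RAKO sum was 30 UMIs, 24 of them of Mcpt8, so it describes that barcode and not the Gzmc-high cells at large. That barcode also held all 4 IL31RAKO UMIs of Cpa3 and all 2 of Ms4a2, while Fcer1a had no UMI in IL31RAKO cells. The part of a doublet in these values was not tested.

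The remaining 4 rested less on that barcode. Cebpb, a transcription factor of myeloid cells and inflammation, had 86 UMIs in 22 IL31RAKO cells and 55 UMIs in 28 WT cells, 4.27 times as high (3.01 to 6.10), against a ratio of 1.41 in Gzmc-0 cells. The highest IL31RAKO cell held 32 of the 86, and with doublets removed the ratio was 2.80. At 351 and 82.1 CPM it was above free RNA (263) in IL31RAKO and below it (268) in WT. Lilr4b, an inhibitory receptor, had 24 UMIs in 14 cells and 14 UMIs in 12 cells (4.68 times, 2.33 to 9.79). Lilr4b had at most 5 and 3 UMIs in 1 cell. At 97.9 (IL31RAKO) and 20.9 (WT) CPM it was close to free RNA (84.2) in IL31RAKO and below it (106) in WT. The actin-severing gene Scin had 14 UMIs in 7 cells and 6 UMIs in 6 cells (6.37 times, 2.30 to 20.2), and its ratio in Gzmc-0 cells was 0.502. Ccrl2 (6.30 times) had 24 of 30 UMIs in 1 IL31RAKO cell, and its ratio was 2.48 with doublets removed. It lay at 122 and 19.4 CPM, against 116 and 72.2 in free RNA.

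Chosen after their values were seen, 3 further genes were higher in IL31RAKO without resting on 1 cell. Tnfrsf9 had 46 UMIs in 21 of 55 IL31RAKO cells and 35 UMIs in 16 of 132 WT cells, 3.59 times as high (2.26 to 5.74), with at most 7 and 6 UMIs in 1 cell. Among CD3-rich cells alone its ratio was 2.71 (1.62 to 4.57). Cd7 was 2.07 times as high (1.78 to 2.40) over all Gzmc-high cells, 1.94 times among CD3-rich and 0.579 times among CD3-poor cells. Cd3e, a gene of the rule, was 2.48 times as high (1.99 to 3.09), and 1.80 times among CD3-rich cells. The larger CD3-rich share in IL31RAKO (56.4% against 40.2%) moves with the ratios of these genes, and its part was not tested beyond these values.

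Among the genes lower in IL31RAKO, Pdzk1, which led over Gzmc-0 cells, was found in 10 of 55 IL31RAKO and 59 of 132 WT cells, with at most 5 and 6 UMIs in 1 cell. It lay at 69.3 and 185 CPM, 0.374 times as high (0.211 to 0.624), with 0.536 times among CD3-rich and 0.218 times among CD3-poor cells. In Gzmc-0 cells, where Pdzk1 was near 0 (0.550 and 1.504 CPM), the ratio was 0.366. Tsc22d1, a leucine zipper factor induced by TGF-beta, had 57 UMIs in 31 IL31RAKO cells and 340 UMIs in 94 WT cells, 0.458 times as high (0.340 to 0.608), against 0.626 in Gzmc-0 cells. Its ratio was 0.548 among CD3-rich and 0.463 among CD3-poor cells. Ubash3b (STS-1), a phosphatase that restrains T cell receptor signals, had 8 UMIs in 8 cells and 69 UMIs in 53 cells (0.317 times, 0.131 to 0.659). Sgk1, a kinase gene, had 1 UMI in 1 cell and 30 UMIs in 23 cells. Marf1 and Eef2kmt had 0 UMIs in IL31RAKO, against 24 UMIs in 21 WT cells and 23 UMIs in 22, at least 2.93-fold and 2.81-fold lower at a floor of 3 UMIs per library. With doublets removed the same limit for Marf1 was a ratio of 0.667.

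Chemokines and cell cycle genes that were lower rested on few cells. Ccl1, a ligand of CCR8, had 33 UMIs in 7 IL31RAKO cells and 448 UMIs in 14 WT cells, with 196 in 1 WT cell (0.201 times, 0.137 to 0.287). Its ratio was 1.13 among CD3-rich and 0.0797 among CD3-poor cells, and 0.475 when all cells weighed the same. Ccl5 (RANTES) had 15 UMIs in 6 cells and 134 in 24 (0.306 times, 0.166 to 0.523), at 61.2 and 200 CPM against 168 and 144 in free RNA. Gzma was at least 18.8-fold lower, with its WT UMIs in 3 cells. Ube2c had 7 UMIs in 2 cells and 74 in 9, and Cenpf 3 in 3 and 39 in 8, both genes of cell division. Kpna2, a nuclear import factor, had 3 in 3 and 39 in 14. Of the WT UMIs, 26 of Ube2c, 14 of Cenpf and 14 of Kpna2 lay in 1 cell. Cells with an Mki67 or Top2a UMI numbered 11 of 55 in IL31RAKO and 29 of 132 in WT, against 17.1% and 17.5% of Gzmc-0 cells and 12.1% and 14.3% of macrophage-type barcodes.

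**Figure D5:**
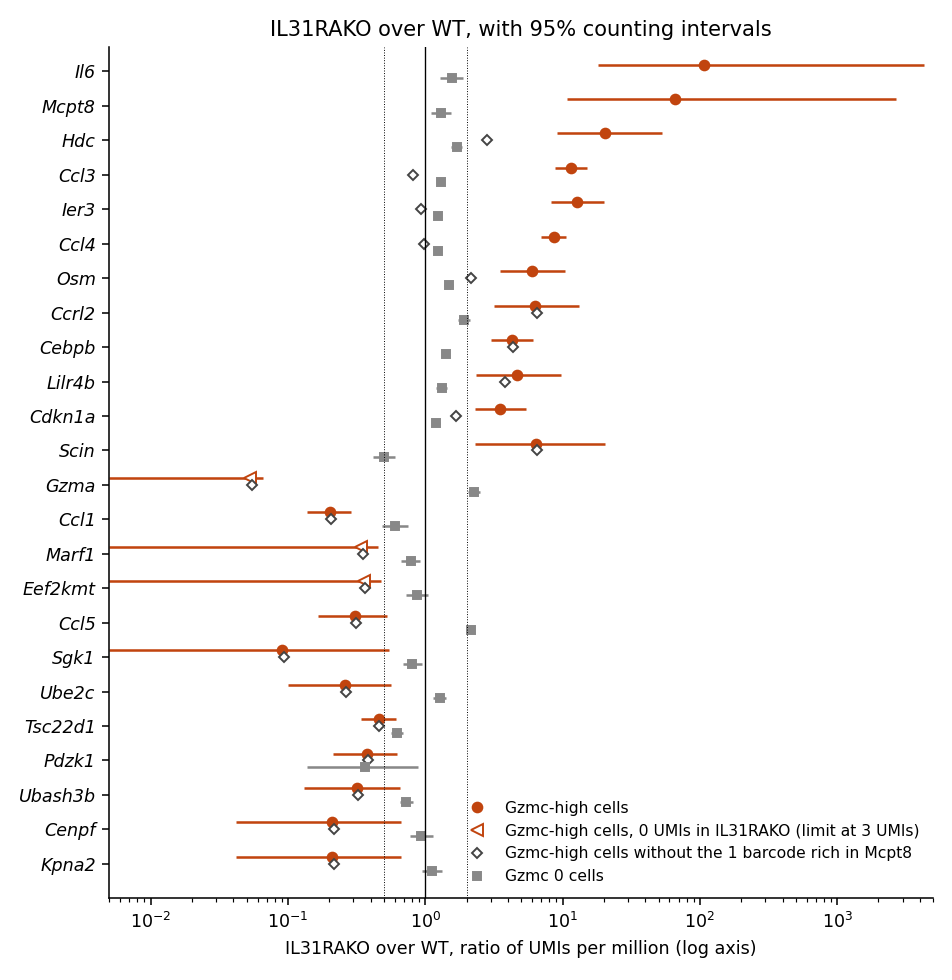
Ratio of CPM, IL31RAKO over WT (log axis), for the 24 named genes: Gzmc-high cells with 95% counting intervals (circles, or open triangles where IL31RAKO had 0 UMIs and the limit at 3 UMIs is drawn), the same without the 1 barcode rich in Mcpt8 (diamonds, not drawn for Il6 and Mcpt8), and Gzmc-0 cells (squares). Dotted lines mark 0.5 and 2; Ccl3, Ier3 and Ccl4 fall to 0.812, 0.934 and 0.981 without that barcode, while Pdzk1 and Tsc22d1 stay below 0.5.

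Neutrophil genes were higher in IL31RAKO in Gzmc-high and in Gzmc-0 cells. S100a8 had 64 UMIs in 27 IL31RAKO cells and 33 UMIs in 12 WT cells (21 of them in 1 cell), 5.30 times as high (3.43 to 8.32), against 5.51 in Gzmc-0 cells. Its ratio was 10.9 with doublets removed and 10.5 without the highest cell of each library, and it turned to 0.583 (0.445 to 0.754) with a Gzmc limit of 3 UMIs, so its direction depends on that limit. The 5 genes of the neutrophil list summed to 469 CPM in IL31RAKO and 82.1 in WT, against 1900 and 363 in Gzmc-0 cells and 1353 and 1121 in free RNA, and 1 of the 5 had 0 UMIs in both libraries. In Gzmc-high cells S100a8 lay below its free-RNA level of 632 and 514 CPM. Ifitm1 and Ifitm3, interferon-inducible genes that neutrophils also carry, were 3.09 and 3.47 times as high, likewise below free RNA in both libraries. With doublets removed, Ifitm1 was 1.95 times (1.13 to 3.33) and Ifitm3 1.301 times (0.521 to 2.99) as high, and with a Gzmc limit of 3 UMIs they were 1.64 and 0.893 times as high.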

How the data were processed

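The deposited values were raw UMI counts per gene and barcode, with no normalization, for 1 library of each genotype; the matrices listed 737280 barcodes and 27998 genes each, and 98.7% of gene IDs matched GENCODE M21. Cell Ranger 3.1, Seurat 3.2.2 and mm10 are named in the submitters' processing notes, without a role. The libraries held 71333292 (IL31RAKO) and 57000499 (WT) UMIs; single counts limit precision most for genes under 20 UMIs.

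Members and gene lists were chosen with earlier results of these data known. UMIs were summed over the cells of a class and divided by the class total; ratios carry exact 95% counting intervals, shares exact binomial (Clopper-Pearson) ones, and a count of 0 was set to 3; the limit of 3 counts beside a count of 0 is lower than the exact upper bound. Cells are not replicates, so no test was made. Named genes were the 12 higher and 12 lower by genotype, and the 20 higher and 10 lower over Gzmc-0 cells, whose interval bound lay farthest from 1, above free RNA; genes of the rule and ribosomal, mitochondrial, sex-linked or numbered gene models were not named. The mitochondrial limit removed 9.59% (IL31RAKO) and 13.5% (WT) of barcodes. Thinning took each cell to 1000 UMIs in expectation. Doublets were scored with Scrublet in scanpy 1.11.5 at an expected 8% and kept in the main values. The highest scores were marked, up to a share set at 0.8% per 1000 kept barcodes. The ratio code was run on simulated counts drawn independently for each gene, without the gathering of UMIs in single cells seen here. That run checked the code and cannot show how well the intervals hold for these data. Python 3.11.15 and SciPy 1.17.1 were used.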

Additional observations from a re-analysis of the deposited data

Results flagged for a closer look

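Ccl5 was 0.306 times as high in IL31RAKO as in WT Gzmc-high cells but 2.15 times as high among Gzmc-0 cells, opposite directions under the same contrast, and the difference was not tested. Gzma likewise was 0.0532 times as high in Gzmc-high cells, at the floor of 3 UMIs since IL31RAKO had 0, and 2.26 times as high in Gzmc-0 cells. For Gzma the WT value came from 3 cells, and for Ccl5 63 of 134 WT UMIs lay in 1 cell.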

How the results depend on the processing

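No paired analysis was possible because each genotype has 1 library. The ratio of shares lay between 0.283 and 0.351 under the other limits on Gzmc, depth, mitochondrial reads and doublets, and was 0.504 over barcodes that met the rule apart from its Gzmc limit. Genes lower in IL31RAKO numbered 442 of 6025 tested with a Gzmc limit of 3 UMIs, against 283 of 4868. Genes higher numbered 85 (18.1% of calls, against 37.3%) and genes lower 384, of 4375 tested, without the highest cell of each gene. The median log2 ratio moved to -0.14 there. Library totals were kept whole in that setting, and 1 of 55 cells is a larger part than 1 of 132. A downward shift of the ratios thus follows by construction. Counts were 35 higher and 42 lower of 2381 at 50 or more UMIs per gene, and 1247 and 894 (58.2% higher) of 9475 at 1 or more in each library. Ifitm3 turned to 0.893 and S100a8 to 0.583 with a Gzmc limit of 3 UMIs, Ccl9 to 0.910 without its highest cells, and Ccl3, Ier3, Ccl4 and Ccl9 to 0.812, 0.934, 0.981 and 0.853 without the barcode rich in Mcpt8, an alternative added after seeing the data. Other ratios kept their direction but moved by over 1.5 times, and those given here are examples and no full list. At a Gzmc limit of 3 UMIs they included Lilr4b (3.02), Ccl5 (0.193), Ube2c (0.418), Cenpf (0.477) and Cdkn1a (1.96). With cells weighted equally they included Scin (3.57), Il6 (59.5) and Cenpf (0.376), and without the highest cells Sgk1 (0.315) and Ube2c (0.114). Ier3 (24.6) and Hdc (44.3) moved with doublets removed, and Ccl3 (17.9) among cells with a CD3 UMI. At 2 or more UMIs, the shares of Gzmc-high cells were 61.8% (IL31RAKO) and 62.9% (WT) for CD3, 7.27% and 1.52% for Gzmb and 0% and 5.30% for CD8 genes. After thinning to 1000 UMIs they were 60.7% and 52.5% for CD3, 6.59% and 2.28% for Gzmb, 3.03% and 5.65% for CD8 genes and 79.8% and 82.7% for Xcl1. Asking for more UMIs, or drawing fewer, lowers these shares by construction. Apart from this and from the shift without the highest cells, the cause of the changes was not tested. Against Gzmc-0 cells with CD8 genes, or with Cd7 and Avil, none of the 60 named ratios turned direction. Ratios from 55 cells leave genes under 20 UMIs unresolved.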
